A study of Mus musculus with 10 samples.

Results

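Erythroid transcription factors switch on the genes of the red blood cell. Of the 10 genes named by the rule, 7 were found by their symbol among the 8904 genes of the blood table, namely Gata1, Tal1, Nfe2, Bcl11a, Zfpm1, Lmo2 and Ldb1. No row matched the symbol or the gene identifier of Klf1, Gfi1b or Epor, and these 3 were not analysed here. Blood RNA from 10 adult C57BL/6 mice was compared, 5 given PBS (control) and 5 given metformin, both for 30 days. The mice were described as 8 months old. The labels state no dose or route for these animals. Each library was taken as 1 mouse, and p-values measure the spread between these libraries.

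Red cell genes are controlled by a small set of proteins that work together. GATA1, a zinc finger protein, binds GATA sequences and recruits FOG1, the product of Zfpm1. TAL1 binds E-box sequences as a dimer and is joined to GATA1 by a bridge of LMO2 and LDB1, neither of which binds DNA itself. KLF1 binds CACCC boxes, GFI1B is a repressor, NF-E2 (the product of Nfe2 with a small Maf partner) acts at globin genes, and BCL11A silences embryonic globin genes. EPOR is the receptor for erythropoietin, the hormone that keeps red cell precursors alive. Several of these genes are also used outside the red cell line. Gata1, Tal1, Nfe2 and Zfpm1 act in megakaryocytes, the cells that shed platelets, Bcl11a acts in B cells, and Tal1 and Lmo2 act in endothelium.

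In the metformin-treated group Gata1 was higher, and it was the only 1 of the 6 tested members that passed in either direction. Of all tested genes, 4.21% passed as higher and 3.11% as lower. Without control 1 and control 5 these shares were 5.81% and 9.06%. The count is not read as a result about the members. With all controls the call of Gata1 ended in 4 of 10 fits that left out 1 library. Ldb1, the partner of Gata1 in the same complex, had the opposite sign and stayed short of the threshold. Lmo2, Nfe2 and Zfpm1 were lowest in control 1 and control 5, so that most of their difference between the groups rested on these 2 libraries. Among the 8 other libraries Tal1 and Nfe2 were high where platelet transcripts were high, Lmo2 where red cell transcripts were high and Bcl11a where B cell transcripts were high.

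Upstream sequences were read to see which of 2 DNA motifs bound by members, GATA and CACCC, lie ahead of the starts of the members that the comparison turns on. RefSeq (GRCm38.p6) gave windows for 8 of the 10 genes, and Nfe2 and Lmo2 had none. The search covered the 250 bases before each start on both strands, for AGATAA and its variant TGATAA (together called GATA) and for CACCC. Shown are Gata1, which passed, and the Tal1 and Ldb1 windows that hold a GATA match. Capitals mark the matches, as read on the strand of the gene. The Gata1 window lies at chrX:7967911-7968160 (minus strand), the Tal1 window at chr4:115056176-115056425 (plus strand), and the Ldb1 window, the third of 3 annotated starts, at chr19:46037071-46037320 (minus strand). The Gata1 and Ldb1 windows lie inside the annotated spans of these genes. For Gata1 the bases before the outermost end of the gene were not read.
Gata1: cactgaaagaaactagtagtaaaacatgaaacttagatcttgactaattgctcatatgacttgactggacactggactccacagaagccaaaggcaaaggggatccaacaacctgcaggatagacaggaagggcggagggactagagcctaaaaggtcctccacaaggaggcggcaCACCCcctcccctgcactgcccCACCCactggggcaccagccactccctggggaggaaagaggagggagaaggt
Tal1: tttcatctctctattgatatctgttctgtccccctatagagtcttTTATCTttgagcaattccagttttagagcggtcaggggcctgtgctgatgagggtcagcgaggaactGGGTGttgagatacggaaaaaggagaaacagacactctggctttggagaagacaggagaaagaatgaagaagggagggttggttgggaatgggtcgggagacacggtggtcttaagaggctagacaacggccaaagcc
Ldb1: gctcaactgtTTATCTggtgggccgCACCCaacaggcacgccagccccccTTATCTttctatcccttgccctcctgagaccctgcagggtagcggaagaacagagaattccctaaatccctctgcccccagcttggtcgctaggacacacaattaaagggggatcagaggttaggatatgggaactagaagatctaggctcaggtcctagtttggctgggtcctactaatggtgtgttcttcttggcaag
The Gata1 window held 2 CACCC matches, whose first bases lie at -74 and -52 from the start, and no GATA match. The Tal1 window held 1 GATA match at -205 and 1 CACCC match at -138. The Ldb1 window held 2 GATA matches, at -240 and -200, and 1 CACCC match at -225. Of all 32851 windows, 16.6% held at least 1 GATA match and 2.72% held 2 or more. For CACCC these shares were 52.0% and 21.1%. The Tal1 and Ldb1 windows were chosen for their GATA matches, so the shares do not test them. The windows of Klf1, Gfi1b and Epor, not shown, also held 1 GATA match each. The remaining Tal1 window and the other 2 Ldb1 windows held no GATA match. These matches describe letters only, and binding was not measured.

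The table holds log2 FPKM, fragment numbers divided by transcript length and by library size. Ranked from lowest to highest, the libraries hold almost the same values (largest SD at any rank 0.0399), so a change common to most genes could not be measured. How the libraries were brought to these like values is not described in the sources used here. The offset of the log is not given in the sources used here, and differences are therefore kept on the log2 scale. Read counts were not used, and depth is unknown. Alas2, which starts heme synthesis in the red cell line, was the highest gene of the table in 8 libraries. Control 1 and control 5 stood apart. Their means over 19 red cell markers were 0.53 and 1.63, against 4.12 to 5.49 in the other libraries, and their means over 16 heart muscle markers were 7.31 and 7.49, against 0.18 to 1.63. In bulk RNA, fewer cells of a type cannot be told apart from less RNA per cell. The groups were therefore compared with all 10 libraries and as 5 metformin libraries against controls 2, 3 and 4, and both comparisons share the metformin libraries. Fast skeletal muscle markers also separated the groups, the mean of the list lying between 4.30 and 4.89 under metformin and between 0.26 and 0.64 in all 5 controls.

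**Figure D1:**
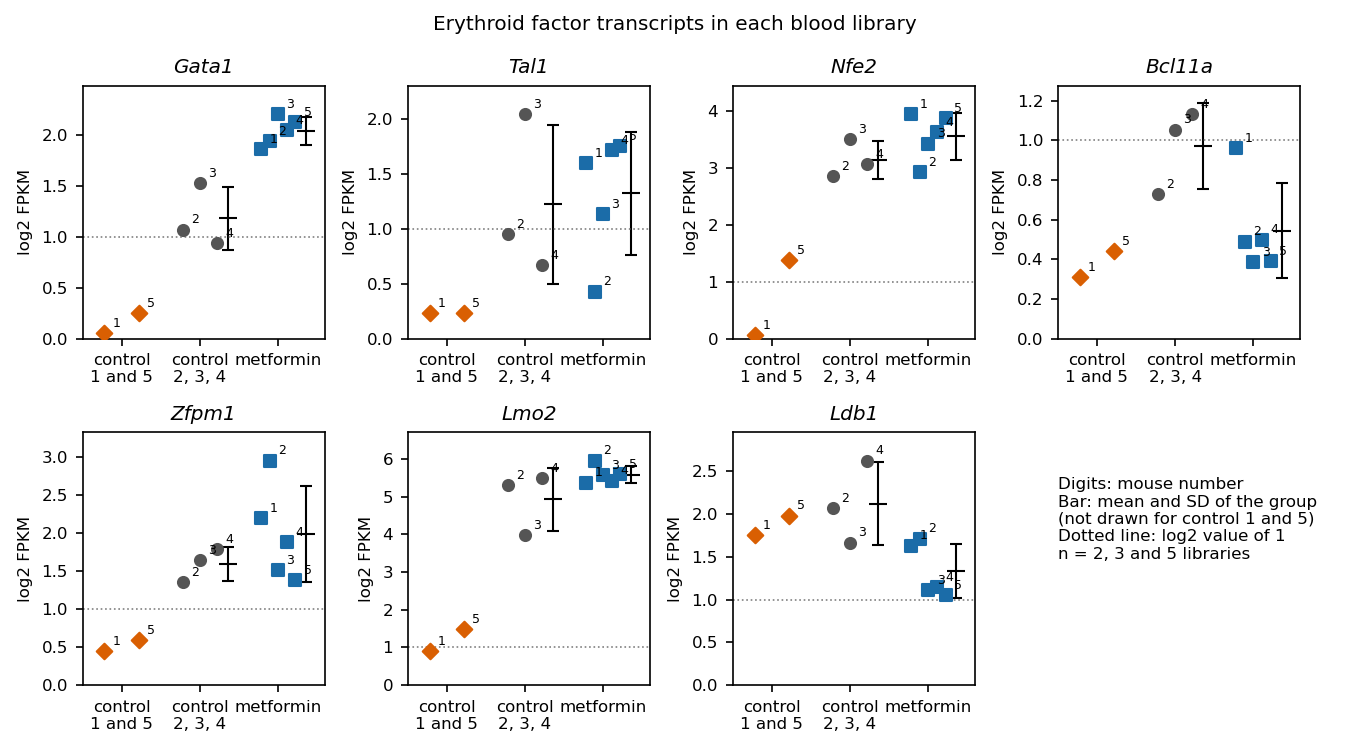
Log2 FPKM (vertical axes) of the 7 measured members in each library, with the mouse number beside each point and bars for the mean and SD of controls 2, 3 and 4 (n = 3) and of metformin (n = 5). All 5 Gata1 values under metformin lie at 1.86 or above, and control 1 and control 5 are the lowest libraries for Gata1, Tal1, Nfe2, Zfpm1 and Lmo2 but not for Ldb1.

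The groups were compared with limma over the 3442 genes that reached a log2 value of 1 in 5 or more libraries, with Benjamini-Hochberg adjustment. Of the 7 members measured, 6 passed this filter, and Bcl11a did not. The filter itself favours genes that are high in 1 group: Tal1 was kept with 4 metformin libraries and 1 control library at or above 1, and Gata1 with 5 and 2. Over all tested genes, 4.21% were called higher and 3.11% lower (threshold 0.05 on the adjusted p). Of the 6 members limma called 1 higher and none lower, and 4 had a positive and 1 a negative difference at an unadjusted p under 0.05, which 16.2% of all tested genes reached with a positive and 12.6% with a negative difference. Without control 1 and control 5, 5.81% of the tested genes were called higher and 9.06% lower. Again 1 member was higher and none was lower, with 1 in each direction at an unadjusted p under 0.05, where the shares over all tested genes were 12.6% higher and 16.1% lower. A count of 1 in 6 is near these unadjusted shares. It is above the shares called higher, but with 6 members no smaller count than 1 can be called. It is therefore not read as a result about the members. The 4 members with a positive difference at an unadjusted p under 0.05 were above the share of 16.2%, and 1 remained without control 1 and control 5. The median log2 difference of the 6 members was 1.05, beside 0.01 over all tested genes, and it was 0.40 beside 0.07 without control 1 and control 5. Bcl11a, left out by the filter, had a log2 difference of -0.19, and of -0.43 without these 2 controls. The medians and counts cover only the members that passed the filter and are not read as a shift of all members.

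Gata1, the DNA-binding factor without which red cell precursors do not mature, lies on chromosome X from 7959260 to 7978071 (GRCm38, minus strand). Its log2 FPKM was 1.86, 1.94, 2.21, 2.05 and 2.13 in metformin 1 to 5. In control 1 to 5 it was 0.051, 1.07, 1.53, 0.94 and 0.25. Every metformin library was above every control library, a separation that 5.69% of the tested genes showed in this direction and 5.23% in the other. The mean log2 level was 2.04 ± 0.14 (SD, n = 5) under metformin and 0.77 ± 0.61 (SD, n = 5) in the controls. The log2 difference was 1.27 (standard error 0.27, adjusted p = 0.0235 from limma). The exact permutation test (two-sided) gave p = 0.00794, which no arrangement of 5 against 5 can undercut. Against controls 2, 3 and 4, whose mean was 1.18 ± 0.31 (SD, n = 3), the log2 difference was 0.86 (standard error 0.19, adjusted p = 0.0148 from limma, exact permutation p = 0.0179, the smallest of 56 arrangements). There, 9.85% of the tested genes lay above all 3 controls and 12.9% below in all 5 metformin libraries.

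The Gata1 call was close to the threshold. With all 10 libraries it ended without control 5 (adjusted p = 0.0642 from limma), metformin 3 (0.0579), metformin 4 (0.0608) or metformin 5 (0.0642). Against 3 controls it ended without control 2 (0.0589) or control 4 (0.0620). Without a filter on low values the adjusted p of limma was 0.0502 with all 10 libraries and 0.0235 against 3 controls, and with an offset of 0.1 in the log it was 0.0572 and 0.0171. The difference was positive in each of these fits. By rank among 8904 genes, Gata1 stood at 971 to 1286 in the metformin libraries, at 1773 to 3616 in controls 2, 3 and 4, and at 8852 and 8262 in control 1 and control 5.

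Over the 8 libraries other than control 1 and control 5, the Pearson r of Gata1 was 0.348 with the red cell mean, 0.543 with the platelet mean, 0.724 with the endothelial mean, -0.871 with the B cell mean and -0.819 with the T and NK cell mean, as a description over libraries that share the split between the groups. Of the 12 markers in the endothelial mean only 2, Esam and Pecam1, passed the filter. The mean of the 19 red cell markers was 5.12 to 5.49 under metformin and 5.09, 4.12 and 5.20 in controls 2, 3 and 4. Control 2 and control 4, with red cell means near the metformin range, had the lowest Gata1 of these 3 controls, and control 3 had more Gata1 with fewer red cell transcripts. Control 3 also held the highest platelet marker mean of all libraries, 5.24, against 1.76 and 0.84 in control 2 and control 4. Under metformin the platelet mean was 0.48 in metformin 2 and 4.18 to 4.76 in the other 4. The part of platelet transcripts in the Gata1 difference was not tested. Fits with a marker mean of the same libraries as a covariate are given as other settings only. With the red cell mean as a covariate the log2 difference of Gata1 was 0.78 (adjusted p = 0.0395 from limma), and with the platelet mean it was 1.06 (adjusted p = 0.0531 from limma). Against 3 controls these values were 1.13 (adjusted p = 0.0138 from limma) and 0.78 (adjusted p = 0.00733 from limma). The fast skeletal muscle list moved with Gata1 between the groups. With all libraries limma called 14 of its 14 tested genes higher, beside 4.21% of all tested genes. Its r with Gata1 was 0.896 over the 8 libraries and -0.563 within the 5 metformin libraries. The list separated all metformin libraries from all controls, so its part in the Gata1 difference cannot be told apart from that of metformin. It was not tested.

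Tal1, the basic helix-loop-helix factor of blood stem cells, red cells and megakaryocytes (chromosome 4, 115056426 to 115071755), did not separate the groups. Its log2 FPKM was 1.60, 0.43, 1.13, 1.71 and 1.75 in metformin 1 to 5. In control 1 to 5 it was 0.23, 0.95, 2.04, 0.67 and 0.23. The highest value was thus in a control library and the ranges overlapped widely. The log2 difference was 0.50 (95% interval -0.30 to 1.30, adjusted p = 0.348 from limma), and against controls 2, 3 and 4 it was 0.10 (-0.73 to 0.94, adjusted p = 0.867). These intervals include changes in either direction. Tal1 was high where platelet transcripts were high, in control 3 and in metformin 1, 3, 4 and 5, and low in the platelet-poor libraries control 4 and metformin 2. Across the 8 libraries other than control 1 and control 5, its Pearson r with the mean of 17 platelet markers was 0.948, with the endothelial mean 0.814 and with the red cell mean -0.507, all descriptions over libraries that share nearly the same distribution of values. Within the 5 metformin libraries r was 0.940 with the platelet mean and 0.966 with the endothelial mean. The 2 endothelial markers that passed the filter were also low in platelet-poor metformin 2. Esam was 0.58 there and 2.25 to 2.76 in metformin 1, 3, 4 and 5, and Pecam1 was 1.43 and 2.77 to 3.16. The endothelial r can therefore not be told apart from the platelet r.

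Nfe2, the larger subunit of NF-E2, a factor of globin genes and of platelet release (chromosome 15, 103248212 to 103258403), was low in the same metformin library as Tal1. It stood at a log2 FPKM of 3.95, 2.92, 3.43, 3.62 and 3.87 in metformin 1 to 5. In control 1 to 5 it was 0.061, 2.86, 3.50, 3.06 and 1.38. Metformin 2, the platelet-poor library of its group, had the lowest value under metformin, and control 3 had the highest control value. The log2 difference was 1.38 (standard error 0.60, adjusted p = 0.163 from limma). Against controls 2, 3 and 4 it was 0.42 (95% interval -0.27 to 1.11, adjusted p = 0.401 from limma). Over the same 8 libraries, r was 0.856 with the platelet mean, 0.895 with the mean of 12 endothelial markers (0.32 to 0.91 in these libraries) and 0.019 with the red cell mean. The limit given for the endothelial r of Tal1 holds here too.

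Bcl11a, the zinc finger repressor of embryonic globin genes and a factor that B cells need (chromosome 11, 24078056 to 24174123), was too low to be tested. Its log2 FPKM was 0.73, 1.05 and 1.13 in controls 2, 3 and 4, and 0.31 and 0.44 in control 1 and control 5. Under metformin it was 0.96, 0.49, 0.38, 0.50 and 0.39. Only control 3 and control 4 passed a log2 value of 1, and 2 annotated antisense transcripts overlap the gene. The level followed the B cell markers, with r = 0.936 over the 8 libraries for the mean of 16 such genes. That mean was 2.36 to 3.42 in controls 2, 3 and 4 and 0.96 to 1.97 under metformin, highest in metformin 1, which also had the highest Bcl11a of its group. In the comparison with 3 controls, 9 of 11 tested B cell markers were lower and none was higher in limma. Among all tested genes 9.06% were called lower and 5.81% higher there.

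**Figure D2:**
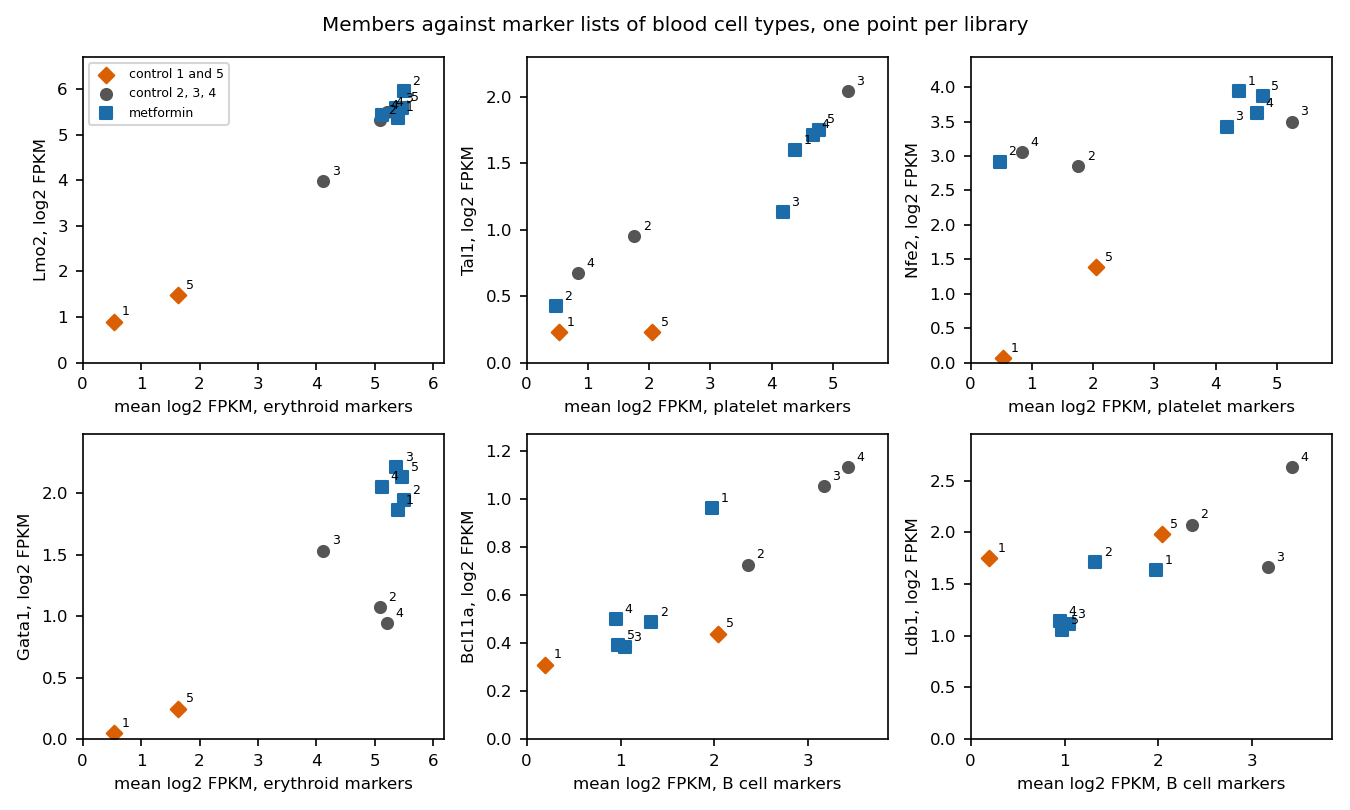
Log2 FPKM of a member (vertical axis) against the mean log2 FPKM of a marker list (horizontal axis), 1 point per library with its mouse number. Lmo2 lies along the red cell mean, Tal1 and Nfe2 split by platelet mean with metformin 2 beside control 4, Bcl11a and Ldb1 are highest in control 4, the library with the highest B cell mean, and the metformin libraries have more Gata1 than controls of a similar red cell mean.

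Among the cofactors, Lmo2, the LIM protein that bridges TAL1 and GATA1, had the highest log2 FPKM, a level per transcript length, of the 7 members in the 8 libraries other than control 1 and control 5 (chromosome 2, 103957986 to 103981878). The level was 5.38, 5.96, 5.58, 5.43 and 5.60 in metformin 1 to 5. In controls 2, 3 and 4 it was 5.32, 3.98 and 5.50, and in control 1 and control 5 only 0.90 and 1.48. The metformin libraries thus overlapped with control 4, and the 2 heart-rich libraries set most of the gap. The log2 difference of 2.15 (standard error 0.87, adjusted p = 0.142 from limma, exact permutation p = 0.0318) became 0.66 (95% interval -0.17 to 1.48, adjusted p = 0.272 from limma, exact permutation p = 0.0714) without them. The r of Lmo2 with the red cell mean was 0.967 over 8 libraries, of which control 3 lay far below the rest in both, and 0.617 within the 5 metformin libraries. Taken relative to the red cell mean of the same library, it was 0.22 ± 0.18 (SD, n = 5) under metformin and 0.12 ± 0.25 (SD, n = 5) in the controls, a log2 difference of 0.10 (exact permutation p = 0.484). All 10 libraries, with control 1 and control 5 among them, lay between -0.15 and 0.47 on this scale. A protein-coding gene on the opposite strand overlaps Lmo2, and the strand of the reads was not given in the sources used here.

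Zfpm1 encodes FOG1, the cofactor that GATA1 needs at many of its targets (chromosome 8, 122282141 to 122337251). Log2 FPKM values of Zfpm1 were 2.20, 2.95, 1.51, 1.87 and 1.38 in metformin 1 to 5. In control 1 to 5 it was 0.45, 1.35, 1.64, 1.78 and 0.59. Metformin 2, low in Tal1 and Nfe2, was the highest library here, and 2 metformin libraries lay within the range of controls 2, 3 and 4. The log2 difference was 0.82 (standard error 0.36, adjusted p = 0.164 from limma), and against controls 2, 3 and 4 it was 0.39 (95% interval -0.36 to 1.14, adjusted p = 0.468 from limma). Another annotated protein-coding gene overlaps Zfpm1 on the same strand.

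Ldb1, the broadly expressed protein that joins distant enhancers and promoters through LMO2, was the 1 tested member with a lower mean under metformin (chromosome 19, 46031570 to 46045214). Its log2 FPKM was 1.63, 1.71, 1.11, 1.14 and 1.05 in metformin 1 to 5. In control 1 to 5 it was 1.75, 2.07, 1.67, 2.63 and 1.98. The groups overlapped by a single pair of libraries, metformin 2 above control 3, and control 1 and control 5 did not stand apart. The log2 difference was -0.69 (standard error 0.23, adjusted p = 0.0977 from limma, exact permutation p = 0.0159) and -0.79 against controls 2, 3 and 4 (standard error 0.26, adjusted p = 0.0681 from limma, exact permutation p = 0.0536), and it turned to 0.14 with all 10 libraries centred on the ribosomal proteins. Against 3 controls it passed without control 3 (adjusted p = 0.0382 from limma) or metformin 2 (0.0440). B cell transcripts and T and NK cell transcripts moved with Ldb1. Over 8 libraries r was 0.839 with the B cell mean and 0.777 with the mean of 15 T and NK cell markers, and that T and NK cell mean was 0.70 to 1.49 under metformin and 1.42 to 2.23 in controls 2, 3 and 4. With the neutrophil mean r was 0.310. It was -0.722 with the platelet mean, -0.772 with the endothelial mean and -0.731 with the fast skeletal muscle mean. The part of leukocytes and of fast skeletal muscle in the Ldb1 difference was not tested. Fast skeletal muscle markers separated all metformin libraries from all controls, so their part cannot be told apart from that of metformin. The neighbouring gene Pprc1, which overlaps Ldb1 on the opposite strand, had a log2 FPKM of 0.35 to 1.03.

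Taken relative to the red cell marker mean of the same library, Ldb1 was the only 1 of the 6 tested members with an exact permutation p under 0.05. Its value was -4.04 ± 0.29 (SD, n = 5) under metformin and -2.68 ± 0.30 (SD, n = 3) in controls 2, 3 and 4, a log2 difference of -1.36 (exact permutation p = 0.0179, the smallest this design allows). With all 5 controls the difference was -2.74 (exact permutation p = 0.0079), where control 1 and control 5 had few red cell transcripts. For Gata1 the relative value was -3.33 ± 0.22 (SD, n = 5) under metformin and -3.62 ± 0.91 (SD, n = 3) in controls 2, 3 and 4 (exact permutation p = 0.518). The other 4 had exact permutation p from 0.554 to 0.786 against 3 controls. These 6 exact tests per comparison are given without adjustment. The share of all tested genes with such a p on this scale was not computed. The red cell mean itself was 5.12 to 5.49 under metformin and 4.12 to 5.20 in controls 2, 3 and 4. A gene at the same level in both groups would thus tend to a lower relative value under metformin.

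**Figure D3:**
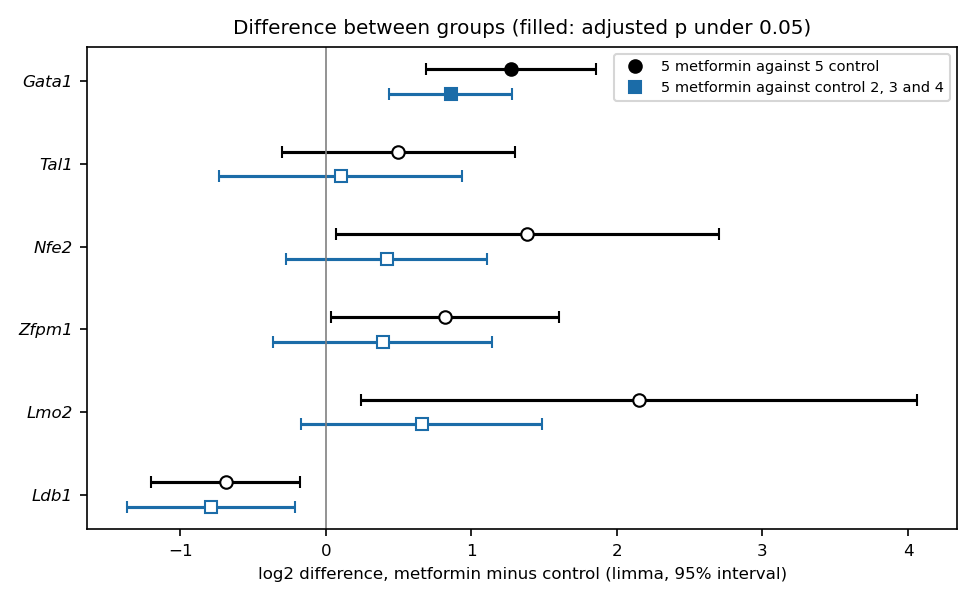
Log2 difference between metformin and control for the 6 tested members (horizontal axis), with 95% intervals from limma, for all 10 libraries (circles) and for controls 2, 3 and 4 only (squares). Filled symbols have an adjusted p under 0.05, which holds for Gata1 in both comparisons (1.27 and 0.86) and for no other member.

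**Figure D4:**
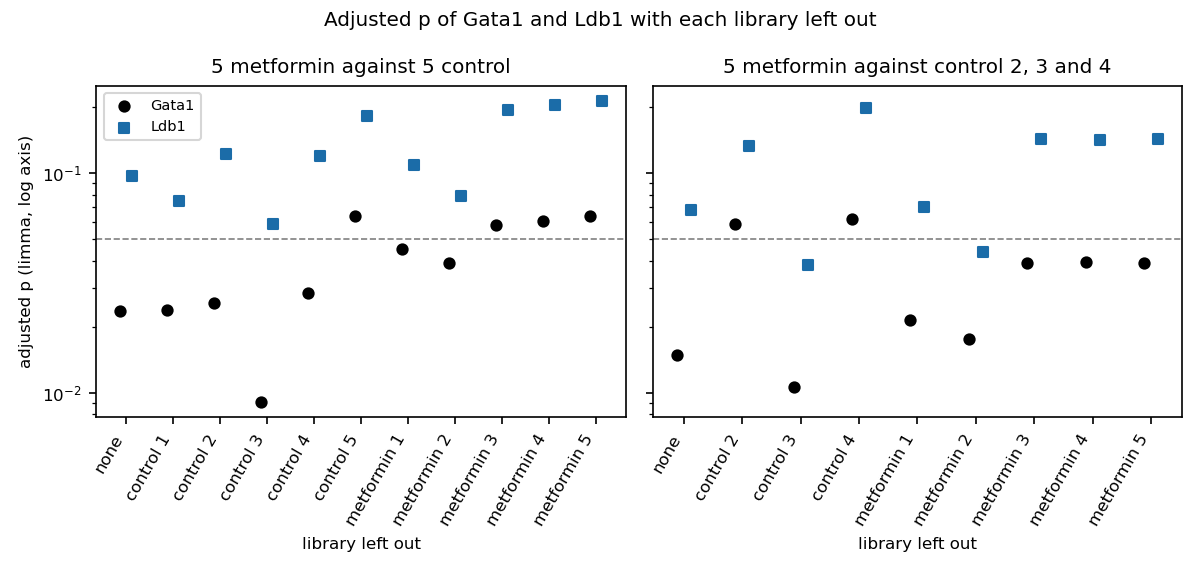
Adjusted p of limma (vertical log axis) for Gata1 and Ldb1 when each library on the horizontal axis is left out, with the threshold of 0.05 dashed. Gata1 crosses the line in 4 of 10 fits with all controls and in 2 of 8 fits with 3 controls, and Ldb1 drops below it without control 3 or metformin 2 in the fits with 3 controls.

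Partners of these factors were read from 4 lists, whose counts stand beside the shares of all tested genes given above. Of 13 tested proteins that bind GATA1, TAL1 or LDB1 or that they recruit, none passed limma with all 10 libraries (unadjusted p under 0.05 for 2 higher and 2 lower). Against controls 2, 3 and 4, 2 of the 13 were lower and none was higher, with 4 lower and none higher at an unadjusted p under 0.05 (9.06% and 16.1% of all tested genes were lower by these rules). The 2 were Tcf3, the E protein that pairs with TAL1 and also a B cell factor (-0.83, adjusted p = 0.0177 from limma), and Mta2, a subunit of the NuRD repressor (-0.56, adjusted p = 0.0285 from limma). With all libraries Tcf3 differed by -0.67 (adjusted p = 0.0610 from limma) and Mta2 by -0.32 (adjusted p = 0.243 from limma). Ssbp3, a protein that stabilizes LDB1, was at 2.92 to 3.55 on the log2 scale under metformin. In controls 2, 3 and 4 it was at 2.65, 1.87 and 3.41, and the log2 difference was 0.64 (adjusted p = 0.269 from limma), and 1.36 (adjusted p = 0.111) with all libraries. Chd4, the NuRD helicase, differed by -0.41 with all libraries (adjusted p = 0.129 from limma) and by -0.46 against 3 controls. None of the 3 tested NF-E2 partners passed limma in either comparison, and none had an unadjusted p under 0.05. Nfe2l1, a relative of Nfe2, had log2 levels of 4.02 in control 1, 3.29 in control 5 and between 1.45 and 1.92 elsewhere. Its log2 difference was -0.88 with all libraries (adjusted p = 0.209 from limma) and -0.10 against 3 controls (adjusted p = 0.700). The small Maf protein Mafg differed by 0.35 (adjusted p = 0.245 from limma) and by 0.20 against 3 controls (adjusted p = 0.551). The stress factor Nfe2l2 differed by -0.096 (adjusted p = 0.718 from limma) and by -0.057 (adjusted p = 0.865).

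Of 9 other tested factors of the red cell and its precursors, limma called Hemgn higher and no gene lower with all libraries (unadjusted p under 0.05 for 3 higher and 1 lower). Hemgn encodes hemogen, a nuclear protein of red cell precursors and a known GATA1 target. It was at 1.46 to 1.89 on the log2 scale in the metformin libraries. In controls 2, 3 and 4 it was at 1.31, 0.86 and 1.06, and in control 1 and control 5 at 0.025 and 0.043. Its log2 difference was 0.97 (adjusted p = 0.0432 from limma), and 0.55 (adjusted p = 0.0564) against 3 controls. In that comparison 3 of the 9 were lower and none was higher (unadjusted p under 0.05 for 4 lower and 1 higher), beside 9.06% of all tested genes called lower and, unadjusted, 16.1% lower and 12.6% higher. These were Spi1 (PU.1), the myeloid and B cell factor that opposes GATA1 (-1.62, adjusted p = 0.00696 from limma), the lymphoid factor Ikzf1 (-1.10, adjusted p = 0.0138 from limma) and Klf13 (-0.59, adjusted p = 0.0389 from limma). With all libraries Spi1 differed by -1.22 (adjusted p = 0.102 from limma), Ikzf1 by -0.57 (adjusted p = 0.304) and Klf13 by -0.33 (adjusted p = 0.278). Spi1 was at 0.63 to 1.10 on the log2 scale under metformin. It was at 3.24, 2.43 and 1.65 in controls 2, 3 and 4, above all metformin libraries, a separation that 12.9% of the tested genes showed. Control 1, at 0.45, lay below every metformin library, so the groups overlapped with all controls.

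Of 9 tested genes of erythropoietin signalling below the receptor, none passed limma with all libraries (1 higher and none lower at an unadjusted p under 0.05). Against 3 controls 2 were lower and none was higher (3 lower and none higher at an unadjusted p under 0.05), beside 9.06% and 16.1% of all tested genes lower by these rules. These were Ptpn6, the phosphatase SHP-1 that ends signalling by EPOR and by leukocyte receptors (-1.92, adjusted p = 0.00168 from limma), and Pik3cd, the leukocyte form of a PI3 kinase subunit (-1.04, adjusted p = 0.00696 from limma). With all libraries Ptpn6 differed by -1.06 (adjusted p = 0.224 from limma) and Pik3cd by -0.57 (adjusted p = 0.252). Bcl2l1, the survival gene of red cell precursors, was at 4.71 to 5.72 on the log2 scale under metformin. In controls 2, 3 and 4 it was at 4.98, 4.22 and 5.24, and it differed by 0.45 (adjusted p = 0.414 from limma). With control 1 and control 5, at 1.07 and 1.23, the difference was 1.91 (adjusted p = 0.166 from limma). Ptpn11, the phosphatase SHP-2, differed by 0.56 against 3 controls (adjusted p = 0.434 from limma) and by 0.73 with all libraries (adjusted p = 0.215). In the same comparison limma called 9 of 11 tested B cell markers, 6 of 9 T and NK cell markers and none of 8 neutrophil markers lower (4 of the 8 at an unadjusted p under 0.05), and none of these higher. The part of these cells in the differences of the 4 lists was not tested. Of the 7 genes of the 4 lists called lower against 3 controls, Mta2 (0.11) and Klf13 (0.09) turned sign when the libraries were centred on ribosomal proteins.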

How the data were processed

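Blood RNA libraries of 5 control and 5 metformin-treated mice were analysed, grouped by the sample titles. Per the methods and the processing notes, RNA was extracted with TRIzol, libraries were made with Nextera XT, reads were aligned with TopHat2 to GRCm38 and expression was computed with Cufflinks. The deposited values are log2 FPKM of 8904 genes, with the base read from the table's title and the offset not given in the sources used here. A normalization between the libraries is not described in these sources either, though the sorted values nearly coincide. The values were used as deposited. No counts were used, so depth is unknown and intervals cover the spread between libraries only.

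The 3442 genes reaching a log2 value of 1 in 5 or more libraries entered limma 3.58.1 under R 4.3.3 (eBayes with trend, Benjamini-Hochberg, threshold 0.05). Single values were compared with two-sided exact permutation tests. The members and gene lists were chosen with earlier results of these data known, and so was the comparison without control 1 and control 5. The rule names all members, the genes called in each partner list in either comparison, filled up to 4 (3 for NF-E2 partners) by the smallest p with all libraries, and the 5 genes most like Gata1, while for Klf1 no row was found. Positions are from GENCODE M21 and upstream sequences from RefSeq, both GRCm38. Of the gene identifiers 8897 matched GENCODE and 7 did not. On simulated data of the 3442 genes with 200 changed, 5 against 5 recovered 44.0% of them at a log2 change of 1 and 85.0% at 2. For 5 against 3 the values were 8.00% and 68.5%. At these log2 changes, 8.33% and 6.08% of the calls were false for 5 against 5, and 11.1% and 4.86% for 5 against 3. Both settings used the SDs within groups over all 10 libraries, control 1 and control 5 included. The values for 5 against 3 therefore do not describe the comparison without control 1 and control 5, which leaves out the spread of these libraries. Alternatives were an offset of 0.1, other filters, centrings, variance models, library weights, a threshold of 0.1, marker means as covariates, the replicate number as a block and each library left out.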

Additional observations from a re-analysis of the deposited data

Results flagged for a closer look

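Bcl11a in metformin 1 lay far from the rest of its group. Its log2 FPKM there was 0.96, against 0.38 to 0.50 in the other 4 metformin libraries, and the gap took up 0.80 of the range of the group. The mean of the B cell markers was also highest in this library among the metformin libraries (1.97, against 0.96 to 1.33). Of the 14 groups of 5 values examined this was the only one with such a library, and chance gives about 1 group in 20.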

How the results depend on the processing

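With all 10 libraries, the number of members called higher by limma was 1. It was 0 with an offset of 0.1, with no filter, with the stricter filter (2 members left), with the replicate block and with the platelet mean as a covariate. It was 5 with values centred on 75 ribosomal proteins, which move the median of all tested genes from 0.014 to 0.85 (from 0.074 to 0.75 against 3 controls). Members called lower went from 0 to 1 (Ldb1) with library weights, at a threshold of 0.1 and with the red cell mean as a covariate. Leaving out each library gave 0 to 1 higher and 0 lower. Against controls 2, 3 and 4, members called higher went from 1 to 0 with the stricter filter and the replicate block, to 4 with ribosomal centring and to 2 (Gata1 and Lmo2) with the platelet mean. Members called lower went from 0 to 1 with library weights, a threshold of 0.1, the red cell mean or the platelet mean, and leaving out each library gave 0 to 1 in both directions.

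The sign turned for Ldb1 with ribosomal centring (0.14, all libraries) and for Tal1 with the platelet mean (-0.021, and -0.22 against 3 controls). Against 3 controls it also turned for Tal1 with the replicate block (-0.13) and across the libraries left out (-0.17 to 0.51), and for Lmo2 with the red cell mean (-0.10). Relative to the red cell mean, the Gata1 difference was -0.78 with all libraries and 0.29 without control 1 and control 5. The cause of these shifts was not tested. With the replicate block the adjusted p of Gata1 was 0.0815 and 0.115. The same-numbered libraries did not deviate together (correlations -0.25 to 0.13), so the numbers were not taken to pair the mice. Over all genes, calls moved from 145 higher and 107 lower to 29 and 1 with the block, to 60 and 13 without a filter, to 52 and 64 with the stricter filter and to 1881 and 18 with ribosomal centring. They were 345 and 394 with library weights, 264 and 206 at a threshold of 0.1, 186 and 350 with the red cell mean, 97 and 41 with the platelet mean and 189 and 282 with the heart mean as a covariate. Against 3 controls, 200 higher and 312 lower became 90 and 84 with the block, 278 and 498 without a filter, 69 and 110 with the stricter filter, 1562 and 88 with ribosomal centring, 317 and 451 at a threshold of 0.1, 330 and 267 with the red cell mean and 448 and 448 with the platelet mean. With all libraries, leaving out 1 library gave 43 to 296 higher and 8 to 237 lower, and against 3 controls 137 to 199 higher and 193 to 324 lower.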

Other observations

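The transcripts of members of the LDB1 complex did not keep a constant log2 difference between libraries. The log2 level of Lmo2 minus that of Ldb1 was 3.75 to 4.54 in the metformin libraries, 2.31 to 3.24 in controls 2, 3 and 4, and -0.85 and -0.50 in control 1 and control 5. The log2 level of Gata1 minus that of Ldb1 was 0.23 to 1.10 in the metformin libraries and -1.73 to -0.13 in the 5 controls. Both pairs were chosen after their values were seen, and no test is given. The share of all gene pairs that separate the groups in this way was not computed. These are transcript levels in bulk blood RNA, and the complex itself was not measured.

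The 5 genes whose log2 FPKM was most like that of Gata1 over the 8 libraries other than control 1 and control 5 were Ppm1a (Pearson r = 0.981), Tuba8 (0.968), Sucla2 (0.956), Setd3 (0.952) and Aldoa (0.951), out of 3436 genes compared. The points share the normalization of their libraries and the split between the groups. In control 1 and control 5, where Gata1 was at 0.051 and 0.25, the 5 genes did not follow Gata1 alike. Tuba8 (1.42 and 1.53), Sucla2 (1.84 and 1.34) and Aldoa (6.82 and 6.84) lay above controls 2, 3 and 4 there. Ppm1a (1.11 and 0.95) and Setd3 (1.32 and 1.10) lay below these controls.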
